A study of Mus musculus with 6 samples.

Results

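The zinc finger genes named Zfp900 to Zfp999 are a numbered block of mouse C2H2 zinc finger genes, nearly all of the KRAB type. The members are all 63 protein-coding genes of the GENCODE annotation whose symbol is Zfp9 followed by 2 further digits, found by Ensembl identifier among the 42450 genes of the deposited table. They were set by name and not by expression, though with earlier results of these data known. The data were total RNA-seq of male mouse embryonic stem cells (ESC) of the line E14tg2a.4, in 3 wild-type (WT) and 3 Srrm2+/- libraries. Srrm2 encodes a large scaffold protein of nuclear speckles that acts in splicing. The Srrm2+/- cells were the gene trap line CG0630, which was made in E14tg2a.4 and carries a truncation in 1 Srrm2 allele, and the WT cells were the parental line. Both were grown on gelatin with leukemia inhibitory factor and kept in serum-free medium before RNA was taken. The mutant is 1 clone, and by the study's methods the replicates were 3 frozen batches of each line, with the WT batches frozen at later passages. Genotype, clone and passage therefore cannot be told apart, and p-values measure the spread between such batches.

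Estimated counts totalled 54151433 to 58499765 in the WT and 61022915 to 69933421 in the Srrm2+/- libraries. Srrm2 itself was measured at 91.2, 98.3 and 97.7 CPM (counts scaled to 1e+06 per library) in WT and at 62.2, 56.2 and 59.6 CPM in the mutant, where the log2 fold change came to -0.69 (SE 0.05, adjusted p = 2.38e-05). The ESC markers were abundant, with 6 of 7 lower in Srrm2+/- (Pou5f1 at -0.04 did not pass) and all 4 formative markers higher (Otx2 1.11, Pou3f1 2.36, Fgf5 1.23, Dnmt3b 0.95). Primitive endoderm markers summed to 1.42 to 1.92 CPM in WT and 2.06 to 3.02 CPM in Srrm2+/-, with Dab2 higher (1.34, adjusted p = 0.0112). Gata6 (0.95) and Gata4 (-0.004) did not pass, and Sox17 and Foxa2 were too low to be tested. Trophectoderm markers summed to 1.72 to 1.89 and 2.26 to 2.61 CPM, with Eomes higher (0.79, adjusted p = 0.0387). Elf5 (-0.33) and Gata3 (0.38) did not pass. Cdx2, not tested, had 0 counts in each WT library and 5, 8 and 17 counts in Srrm2+/-. Fibroblast markers summed to 3.36 to 3.63 CPM in WT and 6.47 to 9.85 CPM in Srrm2+/-. Col1a1, Col1a2 and Col3a1 were higher, while Thy1 (-0.70) and Pdgfrb (0.23) did not pass. Two-cell-like markers summed to 5.79 to 7.56 CPM in WT and 3.81 to 4.64 CPM in Srrm2+/-. Whether these shifts bear on the zinc finger genes was not tested. In bulk RNA, fewer cells that use a gene and less RNA per cell cannot be told apart.

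KRAB zinc finger proteins bind DNA through a row of C2H2 fingers, each of which holds a zinc ion with a pair of cysteines and a pair of histidines. Their KRAB domain recruits the corepressor TRIM28 (KAP1), and with it the histone methyltransferase SETDB1 and HP1 proteins, to silence the bound DNA, which is often a retroelement. The genes multiplied by tandem duplication and stand in clusters of similar copies, of which those on mouse chromosomes 2 and 4 are known for their young, rodent-specific copies active in ESC.

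The 63 members fell into 6 clusters of genes whose starts chain within 1 Mb, which held 45 members, and 18 members stood alone. In the longest coding sequence of each gene, 60 of 63 had at least 1 C2H2 finger (2 to 21, median 11 over all 63), and the exceptions were Zfp935, Zfp957 and Zfp972. A KRAB core was found in at least 1 annotated coding sequence of 60 of 63 genes and in none of Zfp956, Zfp957 or Zfp972, and Zfp974 had it in a shorter coding sequence but not in its longest. The copies are shown here by 1 finger unit of 84 bases per gene, because the likeness of the copies limits how reads can be assigned to them. Each unit is the first finger of the usual spacing in the coding sequence that is followed by another finger, and runs from its first cysteine to the base before the next finger (GENCODE annotation, build GRCm38). Capitals mark the codons of the 2 cysteines and 2 histidines that hold the zinc.
Zfp966: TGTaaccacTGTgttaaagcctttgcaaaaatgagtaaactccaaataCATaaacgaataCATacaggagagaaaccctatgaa
Zfp970: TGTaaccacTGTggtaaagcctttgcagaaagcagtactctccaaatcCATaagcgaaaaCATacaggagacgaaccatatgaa
Zfp987: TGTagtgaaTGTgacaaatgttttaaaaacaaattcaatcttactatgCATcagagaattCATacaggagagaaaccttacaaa
Zfp991: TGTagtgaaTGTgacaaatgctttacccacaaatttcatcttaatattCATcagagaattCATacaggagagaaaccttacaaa
Zfp942: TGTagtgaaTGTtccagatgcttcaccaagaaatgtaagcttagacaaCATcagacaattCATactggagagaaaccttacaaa
Zfp976: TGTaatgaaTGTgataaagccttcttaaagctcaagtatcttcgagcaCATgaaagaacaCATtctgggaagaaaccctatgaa
Zfp975: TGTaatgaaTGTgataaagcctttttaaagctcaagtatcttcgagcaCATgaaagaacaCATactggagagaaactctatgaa
Zfp961: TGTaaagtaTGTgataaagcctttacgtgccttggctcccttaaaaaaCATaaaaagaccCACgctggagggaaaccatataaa
Zfp949: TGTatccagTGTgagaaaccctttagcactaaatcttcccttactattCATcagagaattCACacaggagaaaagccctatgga
The unit shown for Zfp966 was identical in Zfp967, Zfp968 and Zfp969, all of the chromosome 2 cluster. That of Zfp987 was identical in Zfp986, Zfp988 and Zfp989 of the chromosome 4 cluster, and the unit of Zfp991 recurred in Zfp993. Zfp987 and Zfp991 differed at 8 of 84 bases, and Zfp976 and Zfp975 of the chromosome 7 cluster at 5. Likeness did not follow the clusters throughout, since Zfp942 and Zfp945 of the chromosome 17 cluster differed at 38 bases, and Zfp942 and Zfp991 of different clusters at 16. Zfp966 and Zfp987 differed at 30, and the solitary Zfp961 and Zfp949 at 36.

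The main comparison asked which members differ between Srrm2+/- and WT cells. Of the 63 members, 59 passed the filter on low counts and were tested with edgeR's quasi-likelihood test among 18905 genes. At an adjusted p under 0.05, 22 members passed, of which 21 were lower and 1 was higher in Srrm2+/-. That is 35.6% of the tested members lower and 1.69% higher, beside 11.7% lower and 13.6% higher over all genes tested. Among protein-coding genes at a mean log2 CPM of at least 3, to which 51 members belong with all 22 calls, the background was 16.7% lower and 16.0% higher. The other 280 tested protein-coding genes with a Zfp number had 51 lower (18.2%) and 26 higher (9.29%). Many members share sequence, and reads that fit several copies are divided among them, so their calls are not separate observations. Of the 40 tested members with at least 20% of their short sequence runs in other genes, 17 were lower (42.5%). Of the 19 tested members under 20%, 4 were lower (21.1%) and 1 was higher (5.26%), with a median log2 fold change of -0.0451.

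The changes were small. Members that passed as lower stood at 71.3% to 90.8% of WT, with a median log2 fold change of -0.228, while all genes that passed as lower had a median of -0.376. No member that passed reached an absolute log2 fold change of 0.5. The median over the 59 tested members was -0.142, with 45 of 59 negative, beside -0.00254 over all genes tested and -0.0431 over the other Zfp genes. The WT and Srrm2+/- libraries did not overlap for 28 members that were lower and 2 that were higher (background 20% and 21.4%), and these included all 22 that passed. Summed over all members, the level was 4524, 4726 and 4891 CPM in WT and 4321, 4373 and 4433 CPM in Srrm2+/-, without overlap. This sum was not tested. The chromosome 4 cluster held 74.3% of it in WT, and the sum of that cluster did not pass (adjusted p = 0.12).

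**Figure D1:**
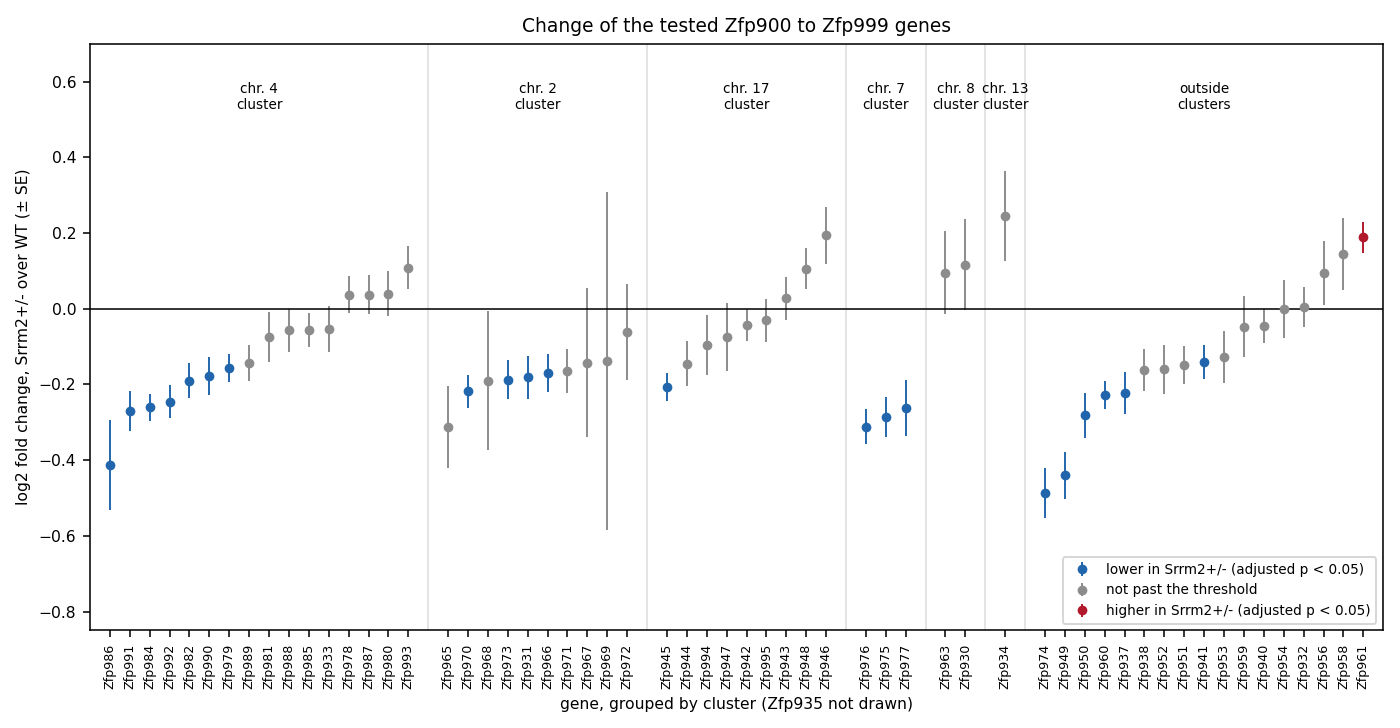
Log2 fold change of Srrm2+/- over WT (y axis, ± SE from edgeR) for 58 tested members, grouped by cluster and ordered within it, with blue for lower, red for higher and grey for not past the threshold. All 10 members of the chromosome 2 cluster lie below 0, though not all kept this sign with 1 library left out. The members past the threshold lie between -0.49 and 0.19. Zfp935, at -2.47 with an SE of 1.37, is not drawn.

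The largest decrease among the members that passed was that of Zfp974, which stands alone on chromosome 7 (ENSMUSG00000070709, chr7:27907392-27929460) and has 21 fingers, the most of all members. It was measured at 15.4, 14.8 and 15.5 CPM in WT and 11.1, 11.3 and 10.2 CPM in Srrm2+/-. Every Srrm2+/- library was lower than every WT library, and the level was 71.3% of WT, a log2 fold change of -0.49 (SE 0.07, adjusted p = 0.000802). Of the words of Zfp974, 26.7% are found in other genes. Next was Zfp949 on chromosome 9 (ENSMUSG00000032425, chr9:88548020-88571061), with 19.2, 18.5 and 19.6 CPM in WT and 15.01, 13.9 and 13.2 CPM in Srrm2+/-, a log2 fold change of -0.44 (SE 0.06, adjusted p = 0.00113). Its finger unit is the last of those shown above, and 1.34% of its sequence words are found in other genes, the lowest share of all members.

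Further members outside clusters were also lower. Zfp950 on chromosome 19 (ENSMUSG00000074733, chr19:61053840-61140840) went from 20.8, 20.3 and 18.5 CPM in WT to 16.5, 16.5 and 16.2 CPM in Srrm2+/-, a log2 fold change of -0.28 (SE 0.06, adjusted p = 0.00816). Zfp960 on chromosome 17 (ENSMUSG00000096696, chr17:17064113-17089628) was the most abundant solitary member, at 157, 162 and 159 CPM in WT and 140.3, 135 and 133 CPM in Srrm2+/-, -0.23 (SE 0.04, adjusted p = 0.00233). Zfp960 shares 86.8% of its words with the gene Zfp97, so the division of reads between these genes is uncertain. Zfp937 on chromosome 2, which shares 40.4% of its words with Zfp442, changed by -0.22 (SE 0.06, adjusted p = 0.0188), and Zfp941 on chromosome 7 by -0.14 (SE 0.04, adjusted p = 0.0488), the smallest decrease that passed.

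Zfp961 was the only member that passed as higher. It lies alone on chromosome 8 (ENSMUSG00000052446, chr8:71951038-71993792) and was measured at 94.7, 91.2 and 94.2 CPM in WT and 102, 107 and 110.2 CPM in Srrm2+/-. All Srrm2+/- libraries stood above all WT libraries, at 114% of WT, a log2 fold change of 0.19 (SE 0.04, adjusted p = 0.0106). A share of 4.97% of its words is found in other genes. The other 10 tested members outside clusters did not pass, with log2 fold changes from -0.16 for Zfp938 to 0.15 for Zfp958. Among them was Zfp932, a KRAB zinc finger gene known to bind endogenous retroviruses, at 0.00 (SE 0.05). Zfp932 shares 44.17% of its words with Gm15446, so the division of reads between these genes is uncertain.

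**Figure D2:**
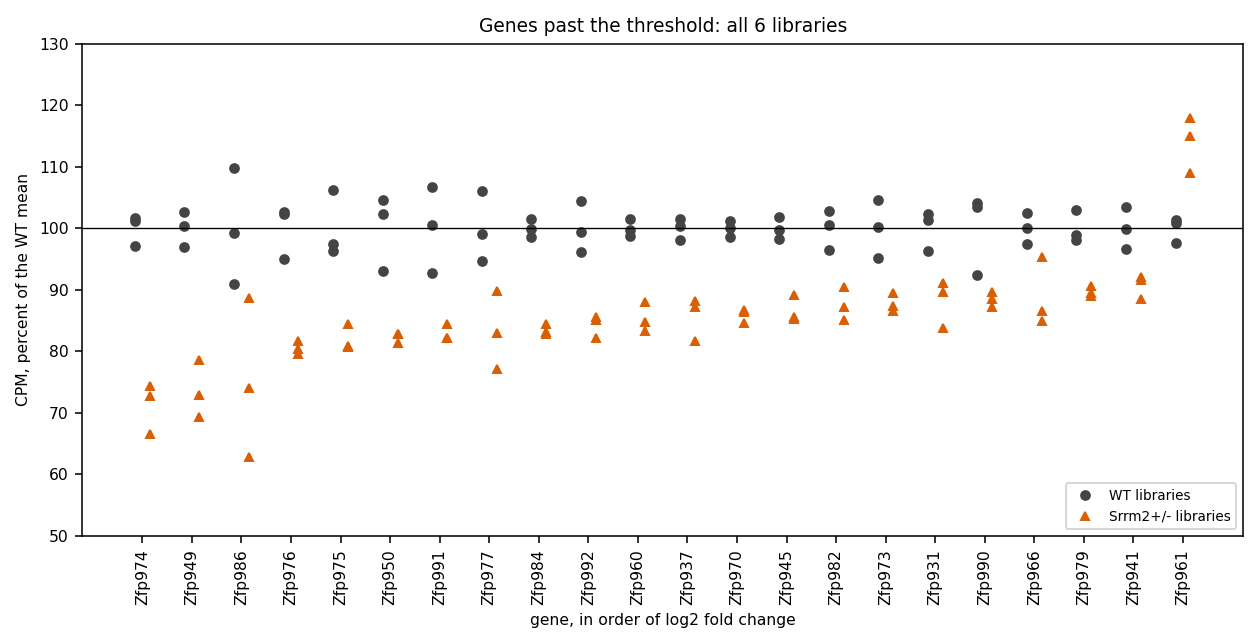
Level of the 22 members past the threshold in each of the 6 libraries, as a percent of the gene's WT mean CPM (y axis, from 50), with grey circles for WT and orange triangles for Srrm2+/-. In each of 21 genes every Srrm2+/- library lies below every WT library, and for Zfp961 every Srrm2+/- library lies above.

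The chromosome 4 cluster (chr4:145510759-147848366) held 16 members, all tested, and 74.3% of the members' summed CPM in WT. It also held the 5 members with the highest level per kb of exon, which were Zfp990 (179 CPM per kb in WT), Zfp980 (157), Zfp988 (109), Zfp979 (90.2) and Zfp978 (81.0). Of the 16, 7 were lower and 9 did not pass. Zfp986, with 5 fingers, was measured at 23.4, 25.9 and 21.4 CPM in WT and 17.4, 14.8 and 20.9 CPM in Srrm2+/-, a log2 fold change of -0.41 (SE 0.12, adjusted p = 0.0334). Zfp991 went from 196, 225 and 212 CPM to 173, 178 and 173 CPM, -0.27 (SE 0.05, adjusted p = 0.0056). Zfp984 was lower by a similar amount with little spread, at 222, 229 and 225 CPM in WT and 191, 188 and 187 CPM in Srrm2+/-, -0.26 (SE 0.04, adjusted p = 0.000786).

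The most abundant chromosome 4 members were mixed, as Zfp990 and Zfp979 were lower and Zfp980 and Zfp988 did not pass. Zfp990, the gene at the first end of the cluster, was measured at 578, 647 and 651 CPM in WT and 554, 545 and 561 CPM in Srrm2+/-, -0.18 (SE 0.05, adjusted p = 0.0333). Zfp979 went from 367, 364 and 382 CPM to 330.2, 336 and 332 CPM, -0.16 (SE 0.04, adjusted p = 0.0145). Zfp992 changed by -0.25 (SE 0.04, adjusted p = 0.00323). Zfp982, a gene linked to ESC maintenance, changed by -0.19 (SE 0.05, adjusted p = 0.0158). In all 7 genes the groups did not overlap.

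Copies in the same cluster did not all give the same value. Zfp980, the neighbour of Zfp990, was measured at 587, 634 and 670.3 CPM in WT and 618, 642 and 685 CPM in Srrm2+/-, with overlapping groups and a log2 fold change of 0.04 (SE 0.06, adjusted p = 0.677). Zfp987, whose finger unit equals that of Zfp986, had 0.04 (SE 0.05), Zfp978 0.04 (SE 0.05) and Zfp993 0.11 (SE 0.06). The remaining members were negative but did not pass, with Zfp989 at -0.14, Zfp981 at -0.08, Zfp988 at -0.06, Zfp985 at -0.06 and Zfp933 at -0.05. Differences between members were not tested. Zfp986 shares 73.7% of its words with Zfp988 and 72.0% with Zfp987, measured at 304 ± 24.0 and 200.2 ± 12.9 CPM in WT (mean ± SD, n = 3). Zfp993 shares 86.9% of its words with Zfp991, and the division of reads among these copies is uncertain.

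**Figure D3:**
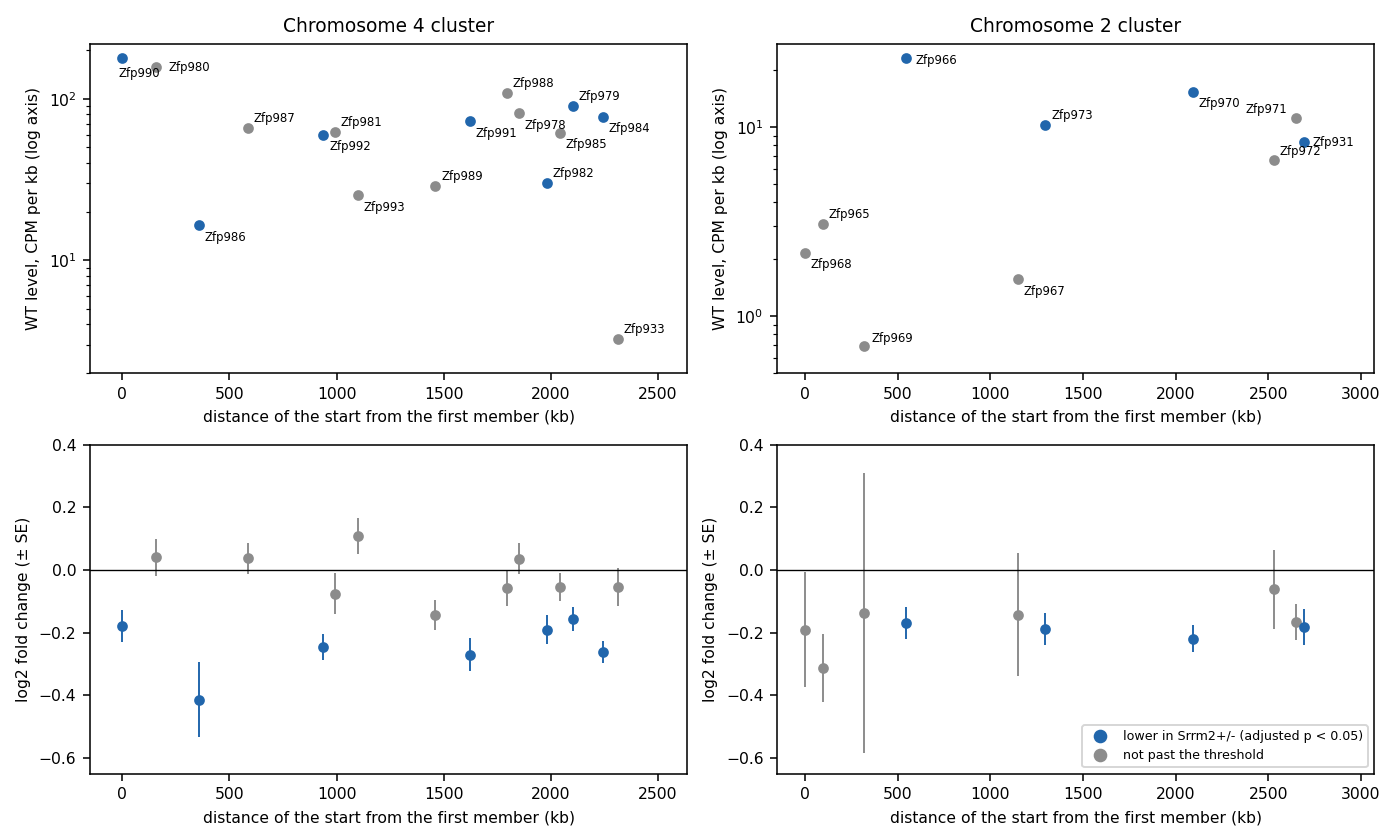
Members of the chromosome 4 cluster (left) and chromosome 2 cluster (right) by the distance of their start from the first member (x axis, kb), with the WT level in CPM per kb on a log axis (top) and the log2 fold change ± SE (bottom), blue for lower past the threshold. Members past the threshold are spread over the chromosome 4 cluster, the first 3 members of the chromosome 2 cluster did not pass, and 4 members of the chromosome 4 cluster lie above 0 while none of the chromosome 2 cluster does.

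To avoid the division of reads among the members of a cluster, their counts were also summed and the sum was tested in place of the members. Such a sum still depends on how reads are divided with copies that are not members. Zfp980 shares 69.85% of its words with Rex2, and Zfp984 shares 58.13% with Gm13212. The chromosome 4 sum was 3323, 3522 and 3663 CPM in WT and 3216, 3241 and 3316 CPM in Srrm2+/-. The groups did not overlap, but the log2 fold change of -0.10 (SE 0.04, adjusted p = 0.12) did not pass. Without WT replicate 1, the lowest WT library, it was -0.14 with an adjusted p of 0.0418.

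The chromosome 2 cluster (chr2:175372436-178078476) held 10 members, all tested, with levels from 0.693 CPM per kb in WT for Zfp969 to 23.1 for Zfp966. All 10 had a negative log2 fold change in the main test, and 4 passed as lower. Zfp967, Zfp968, Zfp969 and Zfp972, which did not pass, changed sign in places with 1 library left out. Zfp970, with 14 fingers, was measured at 33.5, 33.9 and 33.0 CPM in WT and 28.3, 28.9 and 29.0 CPM in Srrm2+/-, -0.22 (SE 0.04, adjusted p = 0.00595). Zfp973 went from 27.9, 26.5 and 29.2 CPM to 24.1, 24.4 and 24.96 CPM, -0.19 (SE 0.05, adjusted p = 0.0279). Zfp966 was the most abundant, at 67.3, 70.8 and 69.1 CPM in WT and 58.6, 65.8 and 59.7 CPM in Srrm2+/-, -0.17 (SE 0.05, adjusted p = 0.0388). Zfp931 changed by -0.18 (SE 0.06, adjusted p = 0.046).

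Of the chromosome 2 members that did not pass, Zfp965 (-0.31, adjusted p = 0.0665) and Zfp971 (-0.16, adjusted p = 0.0695) had groups without overlap. Zfp968 (-0.19, SE 0.18), Zfp967 (-0.14, SE 0.20), Zfp969 (-0.14, SE 0.45) and Zfp972 (-0.06, SE 0.13) overlapped. All words of Zfp967 and Zfp969 are found in other genes, so their own levels cannot be measured by such reads. The cluster sum does not depend on the division among members, though it can depend on the division with other copies, such as Gm14288. It was 195, 197 and 198 CPM in WT and 167, 178 and 174 CPM in Srrm2+/-. Every Srrm2+/- library was lower, with a log2 fold change of -0.18 (SE 0.04, adjusted p = 0.00826).

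The promoters of the chromosome 2 members are alike as well. Over the 9 members with a promoter in the RefSeq table, windows of 300 bases (250 before and 50 after the start) had a median identity of 87% between pairs after global alignment, as a share of the window. The windows of Zfp966 and Zfp970, the most abundant members, are printed as examples with each CG in capitals, as the CG pair is the site of DNA methylation in mammals (RefSeq, build GRCm38.p6). They lie at chr2:175931051-175931350, minus strand, and at chr2:177464492-177464791, plus strand.
Zfp966: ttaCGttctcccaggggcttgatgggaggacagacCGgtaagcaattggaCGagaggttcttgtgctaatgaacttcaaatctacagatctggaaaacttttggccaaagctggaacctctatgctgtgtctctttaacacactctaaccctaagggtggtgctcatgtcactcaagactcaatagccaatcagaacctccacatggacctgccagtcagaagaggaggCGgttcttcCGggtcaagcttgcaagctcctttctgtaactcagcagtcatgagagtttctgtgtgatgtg
Zfp970: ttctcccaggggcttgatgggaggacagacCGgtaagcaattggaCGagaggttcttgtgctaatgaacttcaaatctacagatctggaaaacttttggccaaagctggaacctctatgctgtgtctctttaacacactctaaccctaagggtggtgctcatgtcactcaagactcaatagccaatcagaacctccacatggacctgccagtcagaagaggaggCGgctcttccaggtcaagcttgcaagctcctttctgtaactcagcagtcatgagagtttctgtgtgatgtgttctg
These windows are 97.7% identical and hold 5 and 3 CG pairs. The median was 7 CG pairs per window over all 32851 windows of the table and 5 in this cluster, and 94.6% of all windows hold at least 1. The Zfp966 window is identical in all 300 bases to that of Zfp967.

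The chromosome 7 cluster (chr7:42579783-43192109) held 4 members, of which the 3 tested were all lower. Zfp976, with 18 fingers, was measured at 48.3, 52.1 and 52.3 CPM in WT and 40.5, 40.9 and 41.6 CPM in Srrm2+/-, -0.31 (SE 0.05, adjusted p = 0.00131). Its neighbour Zfp975 went from 36.2, 36.6 and 40.0 CPM to 30.4, 30.4 and 31.7 CPM, -0.29 (SE 0.05, adjusted p = 0.00435), and Zfp977 from 17.3, 15.5 and 16.2 CPM to 13.6, 12.6 and 14.7 CPM, -0.26 (SE 0.07, adjusted p = 0.03). In these genes each Srrm2+/- library was lower than each WT library. Their sum was 102, 104 and 108 CPM in WT and 84.5, 83.9 and 88.0 CPM in Srrm2+/-, the largest change of a cluster sum, with -0.29 (SE 0.04, adjusted p = 0.00087).

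Zfp936, the fourth member of the chromosome 7 cluster, was listed at 0 counts in all 6 libraries. Its RefSeq promoter window is 91.3% identical to that of Zfp977. That window lies inside the GENCODE gene, which starts at chr7:43114229. Both windows are printed because they belong to a copy listed at 0 and a measured copy, at chr7:42592496-42592795, minus strand for Zfp977 and at chr7:43177340-43177639, plus strand for Zfp936, with CG in capitals.
Zfp977: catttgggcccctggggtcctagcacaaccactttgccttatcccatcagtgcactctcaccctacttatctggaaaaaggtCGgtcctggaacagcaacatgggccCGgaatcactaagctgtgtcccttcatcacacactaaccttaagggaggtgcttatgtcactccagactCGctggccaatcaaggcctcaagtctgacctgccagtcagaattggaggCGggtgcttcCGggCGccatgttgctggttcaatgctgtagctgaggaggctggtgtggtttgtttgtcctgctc
Zfp936: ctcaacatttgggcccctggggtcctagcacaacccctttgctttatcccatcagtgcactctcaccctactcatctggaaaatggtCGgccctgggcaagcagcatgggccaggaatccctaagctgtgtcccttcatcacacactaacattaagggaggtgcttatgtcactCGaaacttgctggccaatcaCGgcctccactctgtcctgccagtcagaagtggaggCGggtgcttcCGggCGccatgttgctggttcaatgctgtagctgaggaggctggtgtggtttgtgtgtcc
Each holds 6 CG pairs. Of the words of Zfp936, 31.4% are found in other genes, and why it was listed at 0 was not tested.

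**Figure D4:**
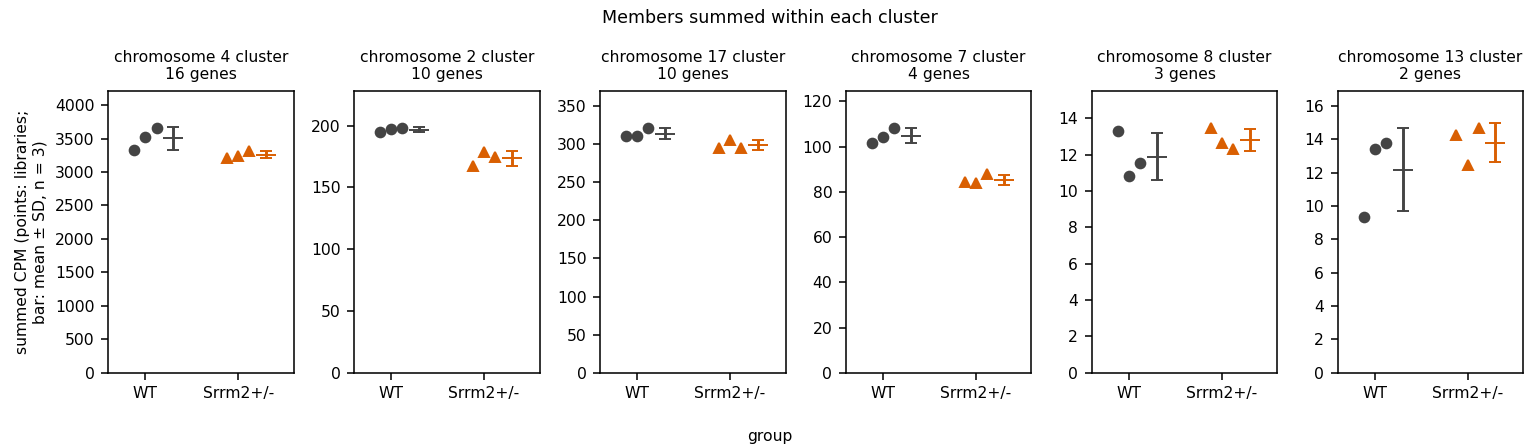
Summed CPM of the members of each cluster in every library (y axis, from 0; circles WT, triangles Srrm2+/-), with the mean ± SD of each group (n = 3). The Srrm2+/- libraries lie below all WT libraries in the clusters of chromosomes 4, 2, 17 and 7, and the sums of chromosomes 2 and 7 passed the threshold.

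The chromosome 17 cluster (chr17:21567008-22867134) held 10 members, of which 9 were tested and 1 was lower. Zfp945, with 18 fingers and 1.69% of its words in other genes, was measured at 122, 120.3 and 125 CPM in WT and 104, 109 and 105 CPM in Srrm2+/-, -0.21 (SE 0.04, adjusted p = 0.00391). The other members did not pass, among them Zfp944 at -0.15 (adjusted p = 0.11, no overlap) and Zfp946 at 0.19 (adjusted p = 0.096, no overlap). Zfp948 stood at 0.11, Zfp943 at 0.03, Zfp995 at -0.03, Zfp942 at -0.04, Zfp947 at -0.07 and Zfp994 at -0.10. The sum was 314 ± 6.65 CPM in WT and 298 ± 6.48 CPM in Srrm2+/- (mean ± SD, n = 3), -0.07 (SE 0.04, adjusted p = 0.202). Zfp983 had 4, 23 and 0 counts in WT and 1, 0 and 13 in Srrm2+/- and was not tested.

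The smaller clusters held no member that passed. On chromosome 8 (chr8:69209038-69749970), Zfp930 had 0.12 (SE 0.12) and Zfp963 0.10 (SE 0.11), while Zfp964 was listed at 0 counts in every library. On chromosome 13 (chr13:62453715-62571199), Zfp934 had 0.25 (SE 0.12). Zfp935, whose words are all found in other genes, had 0, 43 and 63 counts in WT and 0, 0 and 22 in Srrm2+/-, so that its -2.47 (SE 1.37, adjusted p = 0.234) rests on few reads. Zfp957 on chromosome 14 had at most 1 count in any library. A count of 0 allows up to 3 counts in a library by counting error.

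Other protein-coding genes that start inside the clusters were read by the same test. Some of these neighbours share sequence with members, so the division of reads between them is uncertain. Gm14288 holds 38.64% of the words of Zfp970 and 42.46% of those of Zfp971. Of 48 such neighbours 39 were tested, of which 19 were lower and 20 did not pass (background 11.7% lower). In the chromosome 2 cluster 15 of 24 tested neighbours were lower, with Gm14288 at -0.82 and Gm14325 at -0.67. Gm17067 (-0.37) and Gm2381 (-0.26) were the only neighbours tested in the chromosome 7 cluster and both were lower. In the chromosome 17 cluster, Zfp229 (-0.60, adjusted p = 3.38e-05) and Zfp820 (-0.36) were lower among 5, and in the chromosome 4 cluster the 5 tested had adjusted p from 0.243 to 0.852, Rex2 among them at -0.03.

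Sums with the neighbours added were chosen after the data were seen and hold many genes that are not members. On chromosome 2 the neighbours summed to 775 to 785 CPM in WT, beside 195 to 198 CPM for the members. On chromosome 7 they summed to 197 to 208 CPM, beside 102 to 108 CPM. With the neighbours added, the log2 fold change was -0.25 (SE 0.04, adjusted p = 0.00132) for chromosome 2 and -0.31 (SE 0.04, adjusted p = 0.000696) for chromosome 7. For chromosome 4 it was -0.09 (SE 0.05, adjusted p = 0.191). For chromosome 17 the sum then passed, at -0.15 (SE 0.04, adjusted p = 0.0203), with Zfp229 and Zfp820 among the added neighbours. The sum of its members alone did not pass (-0.07, adjusted p = 0.202).

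Shared sequence was measured for every member. A word is a run of 31 bases, the length the counter matches by default, and 41 of 63 members have at least 20% of their words in other genes. Of the 40 tested, 17 (42.5%) were lower, beside 11.7% over all genes tested, and 23 did not pass. Their median log2 fold change was -0.16. Many of them share words with one another, so these calls are not separate observations. Of the 19 tested members under 20%, 4 were lower (Zfp941, Zfp945, Zfp949 and Zfp950) and 1 was higher (Zfp961), with a median of -0.0451. That is 21.1% lower and 5.26% higher, beside 18.2% and 9.29% of the other Zfp genes and 16.7% and 16.0% of the protein-coding genes at a mean log2 CPM of at least 3. Across the 59 tested members, which share libraries and partly sequence, the log2 fold change and the share of words had a Pearson r of -0.28 and a Spearman rho of -0.24, given as a description. For the mean log2 CPM these were 0.34 and -0.04, and for the number of fingers 0.21 and -0.09. All include Zfp935 (-2.47, SE 1.37), which has a mean log2 CPM of -1.36, 0 fingers and 100% of its words in other genes. Pearson values without it were not computed.

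**Figure D5:**
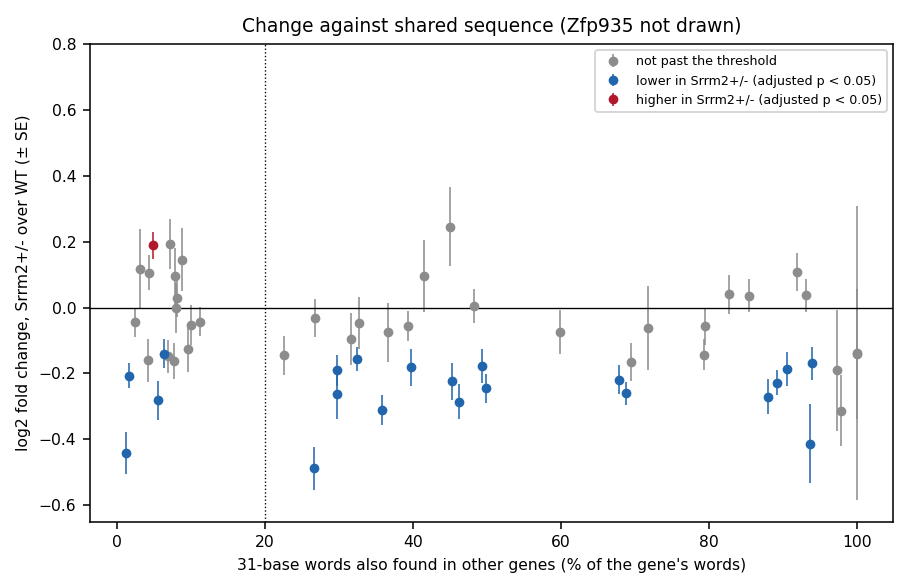
Log2 fold change ± SE (y axis) of 58 tested members against the percent of their 31-base words that are also found in other genes (x axis), with a dotted line at 20% and blue, red and grey as above. To the left of the line 4 members are lower and 1 is higher past the threshold, and to the right 17 are lower; Zfp935, at 100% of words, is not drawn.

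Of a list of 20 genes of the KRAB repressor pathway, all tested, 2 were lower, 2 were higher and 16 did not pass (background 25.3% in either direction). Setdb1, the methyltransferase, was measured at 122, 124 and 123 CPM in WT and 104, 109.6 and 116 CPM in Srrm2+/-, -0.16 (SE 0.05, adjusted p = 0.0291). Zfp57, which keeps methylation at imprinted loci and is also counted among the other Zfp genes, changed by -0.25 (SE 0.04, adjusted p = 0.00261). Higher were Resf1, a partner of SETDB1 in retroelement silencing, at 0.23 (SE 0.04, adjusted p = 0.00487), and Trim33, a relative of TRIM28, at 0.19 (SE 0.04, adjusted p = 0.0089). Trim28 did not pass, with 670.1 ± 31.7 CPM in WT and 639 ± 35.3 CPM in Srrm2+/- (mean ± SD, n = 3) and a log2 fold change of -0.07 (SE 0.05). The list median was -0.0318, beside -0.00254 over all genes tested.

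Of the 22 members that passed, 12 passed under all 14 other settings, which included leaving out each library in turn. These were Zfp945, Zfp949, Zfp950, Zfp960, Zfp961, Zfp970, Zfp974, Zfp975, Zfp976, Zfp984, Zfp991 and Zfp992. The 14 settings do not include stricter thresholds, and at an adjusted p under 0.01 Zfp961 (adjusted p = 0.0106) did not pass. Nor do they address shared sequence, as 89.2% of the words of Zfp960 and 88.0% of those of Zfp991 are found in other genes. The calls least sure were Zfp941, lost under 11 settings, Zfp931 under 10, Zfp966 under 7 and Zfp990 under 6, each keeping its direction. With 1 library left out, 12 to 16 members were lower and 1 or 2 higher, the fewest lower without Srrm2+/- replicate 1 (12) and without WT replicate 3 (13).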

How the data were processed

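Total RNA was sequenced in paired ends from 3 WT and 3 Srrm2+/- cultures with a stranded kit. The authors deposited estimated counts per Ensembl gene, made with Kallisto 0.46.1 on the GENCODE M24 mouse transcriptome (GRCm38). The strand setting is not given in the sources used here, so overlapping genes on opposite strands may share reads. Kallisto divides reads that fit several transcripts, which affects near-identical zinc finger copies. Symbols, positions and lengths came from GENCODE M21 on the same build (42156 of 42450 identifiers matched).

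The members, gene lists and tests were chosen with earlier results of these data known. Named are Srrm2, members past the threshold, tested members of clusters of 3 or more, the 5 members with the highest CPM per kb, members at 0 counts, and pathway genes past the threshold. Genes named beyond that rule were chosen after their values were seen.

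Estimated counts were rounded, and genes were filtered with filterByExpr (minimum count 10, minimum total 15). Genotype was tested with the quasi-likelihood test of edgeR 4.0.16 (R 4.3.3) after TMM scaling, two-sided, with Benjamini-Hochberg adjustment over 18905 genes. Each SE is the absolute log2 fold change over the root of F. CPM used TMM-scaled library sizes. Words of 31 bases were compared between all M21 transcripts. Fingers (C, 2 or 4 residues, C, 12 residues, H, 3 to 5 residues, H) were searched in the translated longest M21 coding sequence of each gene and the KRAB core in all of them, in place of the planned RefSeq proteins, and the KRAB pattern was set after the sequences were seen. Promoter windows were matched by symbol in the RefSeq table for 53 of 63 members and aligned globally with Biopython 1.88. No pair of libraries agreed within counting noise (chi-square per degree of freedom at least 14.7). Same-numbered libraries did not deviate together (correlations -0.028, -0.034 and -0.03), so no replicate block was used in the main test. Alternatives were other scalings (RLE, upper quartile), DESeq2 1.42.0, limma voom (limma 3.58.1), other filters, the replicate block, removal of short, ribosomal and mitochondrial RNA genes, left-out libraries, stricter thresholds, members of little shared sequence, and other cluster sums.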

Additional observations from a re-analysis of the deposited data

How the results depend on the processing

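The number of lower members was 18 to 22 under other scalings, tools and filters, with 1 higher in each. With 1 library left out, 13 to 17 members passed, 12 to 16 lower and 1 to 2 higher, and the median log2 fold change of all tested members was -0.119 to -0.16. At an adjusted p under 0.01, 11 members passed (11 lower, 0 higher), with 43 other Zfp genes and 2779 genes in all. Where a log2 change of 1 or more in size was also asked for, 0 members (0 lower, 0 higher), 0 KRAB repressor pathway genes and 0 cluster neighbours passed, beside 6 other Zfp genes and 1153 genes. Among members with under 20% of words in other genes, 5 passed, 4 of them lower, with a median of -0.0451, and fewer genes were tested (19). The chromosome 17 sum passed with the neighbours added (-0.1456, adjusted p = 0.0203). All sums with neighbours were chosen after seeing the data. The chromosome 4 sum ranged from -0.1413 to -0.0695 with 1 library left out, passing without WT replicate 1. The sums of chromosomes 2 and 7 and Srrm2 kept their direction and their side of the threshold in every alternative run. Chained within 2 Mb, Zfp974 and Zfp940 became a further cluster with a sum at -0.1557 (adjusted p = 0.0212). Of these genes Zfp974 passed (-0.49), while Zfp940 did not (-0.05, adjusted p = 0.516). Low counts limit Zfp935, Zfp957 and Zfp983. Shared sequence limits the 41 members with at least 20% of their words in other genes. Among these are Zfp935, Zfp960 and copies in the clusters of chromosomes 2, 4, 7 and 17.

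With the replicate block, 17 members were lower and 1 was higher, and 4166 genes passed in all. The numbers do not pair the samples, and the calls of Zfp931, Zfp941, Zfp986 and Zfp990 were lost with the block.

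Members that had not passed changed sign in places, and the cause was not tested. Zfp969 stood at 0.0676 with limma voom and at 0.0389 with the block. With 1 library left out, the log2 fold change ranged from -0.486 to 0.6163 for Zfp969, from -0.2691 to 0.0912 for Zfp967, from -0.2932 to 0.0194 for Zfp968 and from -0.1825 to 0.0371 for Zfp972. Likewise it ranged from -0.0048 to 0.0639 for Zfp978, from -0.0085 to 0.0884 for Zfp980, from -0.1131 to 0.0034 for Zfp981, from -0.0085 to 0.0861 for Zfp987 and from -0.1047 to 0.0088 for Zfp988.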
